A study of Mus musculus with 147 samples.

Results

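The meiotic recombination and crossover genes Dmc1, Meiob, Spata22, Msh4, Msh5, Mlh3, Hfm1 and Tex11 were followed through the mouse male germline. They are 8 of the 31053 genes in the table of unique molecular identifier (UMI) counts. They were chosen by name, and all 8 have a row in the table. The cells were single germ cells and neighbouring gonadal cells sequenced by STRT-seq, a method that tags the 3′ end of each mRNA with a UMI. Wild-type cells came from the offspring of males carrying the Blimp1-mVenus and Stella-ECFP reporter transgenes (BVSC) and C57BL/6 females, from E11.5 (embryonic day) to adults of 8 to 10 weeks. Gonads of E11.5 to E18.5 were sorted on the reporters, and testicular cells after birth were picked by their germ cell look. Part of the cells of postnatal day (PND) 14 and PND30 were also sorted by DNA content into 1N, 2N and 4N gates. Helq null cells of E11.5 to E18.5 carried a deletion in exon 1 of both Helq alleles, made by CRISPR in BVSC embryonic stem cells whose chimeric offspring were intercrossed, so genotype and the breeding of that line cannot be told apart.

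Meiotic recombination starts when SPO11 cuts both DNA strands. DMC1, the meiotic strand-exchange recombinase, then pairs the resected end with the homologous chromosome, while MEIOB and SPATA22 form a complex on single-stranded DNA that keeps these intermediates stable. MSH4 and MSH5 form the MutSγ clamp, which with the helicase HFM1 and the X-linked protein TEX11 steers some intermediates towards crossovers, and MLH3, an endonuclease subunit, acts in resolving them. In the testis these steps take place in spermatocytes, in the prophase of the first meiotic division. Female germ cells enter this prophase before birth and male germ cells after it.

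In coordinates of mm10 with GENCODE M21 gene models, all 8 genes are protein coding. Dmc1 spans chr15:79561497-79605109 on the minus strand, and Meiob chr17:24804289-24839788 on the plus strand. Msh4 spans chr3:153857149-153906138, Msh5 chr17:35028605-35046745, Mlh3 chr12:85234520-85270599 and Hfm1 chr5:106840192-106926321, all on the minus strand. Tex11 is the X-linked member, at chrX:100838648-101059667 on the minus strand. Spata22, at chr11:73329741-73346044 on the plus strand, shares 1025 of its 1274 exonic bases (80.46%) with the same-strand readthrough gene Gm49340, which has 0 UMIs. Reads over the shared bases cannot be assigned to 1 gene, so the 1419 UMIs of Spata22 in all cells used are an uncertain measure of it.

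RefSeq promoter windows of GRCm38.p6, from 250 bases before to 50 after the annotated start, were held for 6 of the 8 members (not Meiob or Tex11). They were searched on both strands for 4 motifs: CNCCTCAG, known as a site of the meiotic initiator STRA8, the E2F-type GGCGGGAA, the E-box CACGTG and the NRF1-type CGCATGCG. No matches overlap in the windows shown. Capitals mark the matches. The Hfm1 and Msh5 windows are shown because both hold CNCCTCAG, that of Spata22 because it shares GGCGGGAA with Msh5, and that of Dmc1, the recombinase, because it holds none of the 4. They lie at chr5:106925841-106926140 (Hfm1, minus strand), chr17:35046573-35046872 (Msh5, minus strand), chr11:73329491-73329790 (Spata22, plus strand) and chr15:79605060-79605359 (Dmc1, minus strand).
Hfm1: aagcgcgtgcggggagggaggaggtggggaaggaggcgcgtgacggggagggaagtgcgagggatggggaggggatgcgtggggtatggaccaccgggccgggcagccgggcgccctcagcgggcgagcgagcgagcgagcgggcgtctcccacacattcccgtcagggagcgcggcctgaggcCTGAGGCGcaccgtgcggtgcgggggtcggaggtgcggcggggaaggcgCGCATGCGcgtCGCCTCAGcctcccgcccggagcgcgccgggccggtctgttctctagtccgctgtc
Msh5: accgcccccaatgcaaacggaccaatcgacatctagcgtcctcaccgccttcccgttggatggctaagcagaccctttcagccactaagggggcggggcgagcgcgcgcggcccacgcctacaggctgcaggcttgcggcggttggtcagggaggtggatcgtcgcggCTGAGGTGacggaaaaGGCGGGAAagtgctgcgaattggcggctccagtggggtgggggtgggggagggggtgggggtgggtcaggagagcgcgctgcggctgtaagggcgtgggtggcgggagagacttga
Spata22: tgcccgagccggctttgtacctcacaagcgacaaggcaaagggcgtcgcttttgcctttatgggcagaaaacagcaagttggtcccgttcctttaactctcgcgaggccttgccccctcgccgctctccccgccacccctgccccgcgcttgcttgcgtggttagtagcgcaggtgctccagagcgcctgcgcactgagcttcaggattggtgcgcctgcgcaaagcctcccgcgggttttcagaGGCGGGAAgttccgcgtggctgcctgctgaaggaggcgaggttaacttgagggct
Dmc1: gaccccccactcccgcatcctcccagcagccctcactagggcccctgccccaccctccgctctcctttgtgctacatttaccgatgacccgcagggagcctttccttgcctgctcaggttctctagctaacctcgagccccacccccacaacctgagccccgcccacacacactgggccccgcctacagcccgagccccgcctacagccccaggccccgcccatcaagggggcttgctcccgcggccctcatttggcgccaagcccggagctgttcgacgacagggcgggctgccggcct
Hfm1 held CNCCTCAG at 2 places and CGCATGCG at 1. Msh5 held CNCCTCAG and GGCGGGAA at 1 place each. Of 32851 promoter windows of this length, 7.94% held CNCCTCAG, 2.19% GGCGGGAA, 7.15% CACGTG and 1.87% CGCATGCG. The windows of Mlh3 and Msh4 held none of the 4 motifs, which says only that these letters are not in these windows.

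Germ-like cells of each time-point and replicate were summed into 1 pool, and a level is given as CPM, the gene's UMIs divided by the pool's total and scaled to 1000000. There were 49 wild-type pools of 7697 cells, with 27 to 446 cells and 11603962 to 187711061 UMIs each. The PND30 cells were kept apart by gate, which gave 26 points, of which 23 had a pool from both replicates. E17.5 and PND8 had 1 pool because most cells of the other replicate fell in unnamed clusters led by blood genes. Summed CPM of the markers of other gonadal cells stood between 38.4 and 1628, so RNA of such markers was detected in every pool. In summed pools, fewer cells of a type and less RNA per cell cannot be told apart. The sources give 2 replicates per point but do not say which animals were pooled, so p-values measure the spread between these pools.

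Before the results, 3 cells of the E15.5 replicate 1 pool need a description. They were sorted as reporter-negative from the proximal gonad segment and had 508, 543 and 410 CPM of Dmc1 and 527, 453 and 525 CPM of Meiob. Stra8, which starts meiosis, stood at 795, 563 and 285 CPM in them, and Figla, a transcription factor of oocytes, at 419, 158 and 480 CPM. UMIs from 4 Y-linked genes numbered 1, 0 and 2 in these cells, against a median of 77 and a lowest value of 3 in the 93 reporter-positive germ-like cells of that day and replicate. The 3 cells lifted the pool's Dmc1 to 31.4 CPM, from 18.1 CPM in the reporter-positive cells alone, and its Meiob to 22.3 CPM from 8.18 CPM. Results that rest on this pool are given with and without reporter-negative cells where the call changes.

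**Figure D1:**
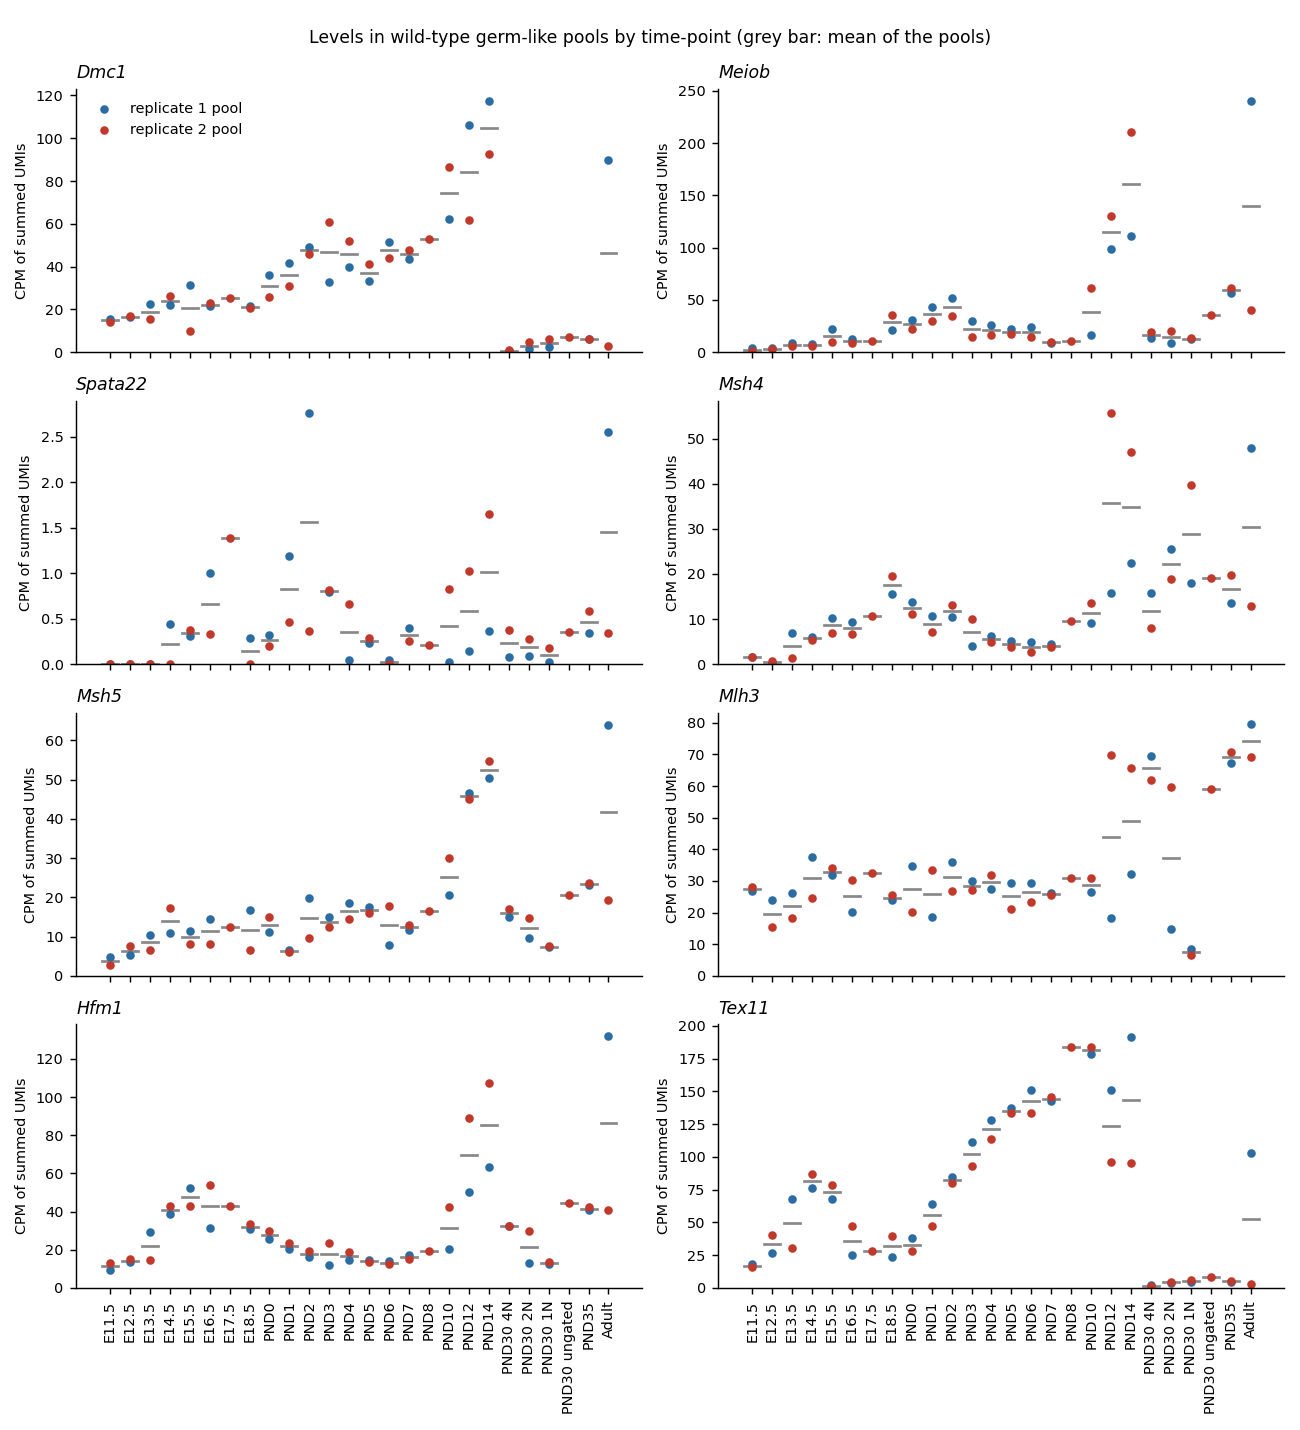
CPM of summed UMIs (vertical axis) in each wild-type germ-like pool by time-point (horizontal axis), 1 panel per gene, with a grey bar at the mean of the pools. Dmc1 and Tex11 drop from means of 104.98 and 143.3 CPM at PND14 to 0.722 and 1.77 CPM in PND30 4N pools. Mlh3 has its highest mean in adults, at 74.3 CPM, where its pools overlap those of PND35.

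Over the 23 points with 2 pools, the strand-exchange genes Dmc1 and Meiob both had their highest mean at PND14. Dmc1 reached 117.3 and 92.7 CPM there, a mean of 104.98 ± 17.4 (SD, n = 2), and was lowest in PND30 4N cells at 0.615 and 0.829 CPM. In the order of its means, neighbouring points overlapped in all but 5 of 22 steps: the PND12 pools overlapped those of PND14 and of PND10, both PND14 pools lay above both PND10 pools, and all of these lay above those of PND6, the next in the order. The adult pools of Dmc1 stood apart, at 89.97 and 3.06 CPM. Meiob reached 110.7 and 211 CPM at PND14 (161 ± 70.8, SD, n = 2) and was lowest at E11.5 with 3.54 and 0.808 CPM. Its adult pools stood at 240 and 40.01 CPM. The marker lists of other gonadal cells summed to 872 and 92.1 CPM in the same adult pools. The adult replicates also differed in the clusters of germ-like cells described below. Every adult pool of a named class came from replicate 2, and all cluster pools of adult replicate 1 were in unnamed clusters. The part of other gonadal cells and of this difference in clusters in the adult gaps, here and in the other members, was not tested. Spata22 lay between 0 and 2.76 CPM in all 49 pools and none of its neighbouring points were separated, so no order of its levels can be given.

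The crossover genes did not share 1 profile. Msh5 stood highest at PND14, with 50.3 and 54.8 CPM, and lowest at E11.5 with 4.75 and 2.79 CPM. Msh4, its partner in MutSγ, was highest at PND12 by the mean, but the 2 pools stood at 15.7 and 55.7 CPM. At E12.5 Msh4 was near the floor, at 0.338 and 0.586 CPM. Hfm1 was highest in adults by the mean, where the pools stood at 131.9 and 40.6 CPM, and lowest at E11.5 with 9.58 and 12.8 CPM.

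Tex11 and Mlh3 peaked at different points. Tex11 was already at 15.7 to 18.4 CPM at E11.5, stayed between 133.2 and 151 CPM in all 6 pools of PND5 to PND7 and was highest at PND10 with 179 and 184 CPM, near the 184 CPM of the single PND8 pool. Its PND30 4N pools held 2.19 and 1.35 CPM, and its adult pools 102.6 and 3.27 CPM. Mlh3 was detected throughout, between 15.52 and 37.6 CPM in every pool of E11.5 to E16.5. By the mean it was highest in adults with 79.5 and 69.03 CPM, which overlap the 67.4 and 70.7 CPM of PND35. It was lowest in PND30 1N cells with 8.53 and 6.54 CPM, the group in which Msh4 still stood at 17.98 and 39.8 CPM.

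The 31 pools of other gonadal cells give a background for these levels. Germ cell markers summed to 72.6 to 752 CPM in them, so this background is not free of germ cell RNA. Msh4 had a median of 0.355 CPM there and Hfm1 3.12 CPM, whereas Dmc1 had 9.27, Msh5 9.22 and Mlh3 19.9 CPM. All germ-like pools of E11.5 to E18.5 lay within the range of the other cells for Dmc1 (1.42 to 44.6 CPM), Meiob (0.180 to 63.5 CPM, median 4.52) and Msh5 (1.95 to 31.1 CPM). The highest Meiob value of the other cells was that of the adult replicate 1 pool, which held 651 CPM of germ cell markers. In the fetal pools of other cells Meiob reached 12.2 CPM, at E13.5 replicate 2. Tex11, at a median of 3.72 CPM in the other cells, ranged up to 60.6 CPM there. The highest Dmc1 and Tex11 values of the other cells were both those of the PND12 replicate 1 pool, which held the 752 CPM of germ cell markers.

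Across the 26 points, log2(CPM + 1) profiles of Dmc1 and Tex11 ran closest together (Pearson r = 0.94), followed by Meiob with Msh5 (0.82) and Meiob with Msh4 (0.76). These are descriptions over points that share libraries and cell makeup. Among 13930 genes the profiles nearest to Tex11 were those of Cd81 (0.98) and Fthl17c (0.97), and nearest to Dmc1 were Slc25a42 (0.96) and Adam10 (0.95). Msh4 ran closest to Ly6k (0.94) and Prss41 (0.91), and Mlh3 to Hint3 (0.91) and Kat7 (0.90). Meiob ran closest to Ccdc122 (0.89) and B3galnt1 (0.88), and Hfm1 to Sugct (0.88) and Efcab14 (0.87). Msh5 ran closest to Tmem129 and Tc2n (0.86 each), and Spata22, at its low level, to Xpr1 (0.80) and Ndst2 (0.74).

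The first comparison asked which members differed between germ cells in mitotic arrest (E14.5, E15.5 and E16.5, 6 pools) and mitotic germ cells (E11.5 and E12.5, 4 pools). Hfm1 and Msh4 rose. Hfm1 stood at 38.96 and 42.9 CPM at E14.5, 52.1 and 43.01 at E15.5, and 31.6 and 53.8 at E16.5, against 9.58 and 12.8 at E11.5 and 13.3 and 14.97 at E12.5. No pools overlapped, and the difference was 1.58 on the log2 scale (SE 0.38, adjusted p = 0.0016, edgeR's quasi-likelihood test with Benjamini-Hochberg adjustment over all genes tested). Msh4 lay between 5.35 and 10.2 CPM in arrest and between 0.338 and 1.62 CPM before it, a log2 difference of 2.86 (SE 0.89, adjusted p = 0.015), also without overlap.

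Of the 8 members 2 passed the test, both higher, where 25.4% of the 27778 genes tested were called in either direction and 13.4% were higher. The median log2 difference was 1.35 over the members and 0.66 over all genes. Meiob stood at 5.64 to 22.3 CPM against 0.808 to 3.86 CPM, which is without overlap, but its log2 difference of 1.72 (SE 0.71) had an adjusted p of 0.074. Tex11 at 1.11 (SE 0.46, adjusted p = 0.075) and Msh5 at 1.02 (SE 0.44, adjusted p = 0.089) were close to the threshold. Both passed it with DESeq2's size factors, in which 5 members and 7503 of 27778 genes were called. Dmc1 at 0.30 and Mlh3 at 0.14 had overlapping pools. Spata22 had no UMI in any pool of the earlier days and 0 to 0.997 CPM in arrest, so no fold is given.

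The next comparison set prospermatogonia of E18.5 and PND0 (4 pools) against the arrested cells. Hfm1 and Tex11 fell. Tex11 stood at 76.4 and 87.1 CPM at E14.5, 67.9 and 78.5 at E15.5 and 24.8 and 46.98 at E16.5, and then at 23.7 and 39.6 at E18.5 and 38.04 and 27.8 at PND0. The E16.5 pools overlap those of the later days, and the log2 difference was -1.21 (SE 0.43, adjusted p = 0.030, edgeR). Hfm1 stood at 25.8 to 33.2 CPM in prospermatogonia against 31.6 to 53.8 CPM in arrest, so its groups also overlap. Its log2 difference was -0.86 (SE 0.33, adjusted p = 0.040, edgeR). Each of these calls held in 13 of 17 alternatives. The 2 of 8 members stand beside 33.5% of all genes called, and the median was -0.36 over the members and 0.61 over all genes.

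Meiob and Msh4 had values in the other direction. Msh4 stood at 11.01 to 19.6 CPM, above every arrest pool, with a log2 difference of 0.70 (SE 0.46, adjusted p = 0.26). Meiob went from 5.64 to 22.3 CPM in arrest to 21.7 to 35.2 CPM. Its log2 difference of 1.08 (SE 0.45) had an adjusted p of 0.066 in edgeR. Without the reporter-negative cells it was 1.36 with an adjusted p of 0.021, and 3 members were called, beside 9406 of 27780 genes. Without the PND0 replicate 2 pool no member passed, beside 7682 of 27634 genes called.

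Spermatogonia of PND5 to PND7 (6 pools) were then set against the prospermatogonia. Tex11 and Dmc1 rose and Msh4 fell. Tex11 stood at 137.4 and 133.2 CPM at PND5, 151 and 133.4 at PND6 and 142.5 and 145.8 at PND7, above every prospermatogonia pool. Its log2 difference was 2.58 (SE 0.44, adjusted p = 1.4e-05, edgeR).

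Dmc1 stood at 33.5 and 41.01 CPM at PND5, 51.6 and 44.2 at PND6 and 43.7 and 47.7 at PND7, against 20.9 to 35.9 CPM before, a log2 difference of 1.21 (SE 0.43, adjusted p = 0.021, edgeR, called in 14 of 17 alternatives) with the PND5 replicate 1 pool below the PND0 replicate 1 pool. Msh4 went from 11.01 to 19.6 CPM down to 2.78 to 5.19 CPM without overlap, a log2 difference of -1.39 (SE 0.47, adjusted p = 0.014). Hfm1 also had no overlap, at 12.4 to 17.3 against 25.8 to 33.2 CPM, but its log2 difference of -0.60 (SE 0.34) had an adjusted p of 0.15. Called were 3 of 8 members, beside 48.8% of all genes, of which 5360 were higher and 8201 lower (3633 and 10004 with DESeq2's size factors). The median log2 difference was 0.09 for the members and -0.65 for all genes.

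The comparison that brings in meiosis set PND12 and PND14 (4 pools) against PND5 to PND7. All members but Tex11 rose. Meiob went from 9.14 to 24.4 CPM in the 6 earlier pools to 98.9 and 130.6 CPM at PND12 and 110.7 and 211 CPM at PND14, a log2 difference of 3.43 (SE 0.39, adjusted p = 1.1e-07, edgeR). Msh4 went from 2.78 to 5.19 CPM to 15.7 and 55.7 CPM at PND12 and 22.4 and 47.1 CPM at PND14 (3.46, SE 0.42, adjusted p = 1.6e-07). Neither gene had overlapping pools.

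Hfm1 stood at 50.3 and 89.1 CPM at PND12 and 63.2 and 107.5 CPM at PND14, against 12.4 to 17.3 CPM before (2.72, SE 0.32, adjusted p = 1.2e-07, edgeR). Msh5 stood at 46.6, 44.9, 50.3 and 54.8 CPM in the 4 later pools, the tightest of the members, against 7.92 to 17.9 CPM (2.01, SE 0.28, adjusted p = 2.6e-06). Dmc1 stood at 106.4, 62.02, 117.3 and 92.7 CPM against 33.5 to 51.6 CPM (1.28, SE 0.39, adjusted p = 0.016). These genes also had no overlap between the groups.

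The PND12 and PND14 pools were split by replicate in most members: Meiob, Msh4, Mlh3 and Hfm1 were higher in replicate 2 on both days, and Dmc1 and Tex11 higher in replicate 1. Mlh3 stood at 18.3 and 69.7 CPM at PND12 and at 32.1 and 65.6 CPM at PND14, so the replicate 1 pools were near the 21.05 to 29.4 CPM of PND5 to PND7. Its log2 difference of 1.21 (SE 0.33, adjusted p = 0.0079, edgeR) passed in 14 of 19 alternatives. Spata22, at 0.146 to 1.65 CPM against 0 to 0.393 CPM, had a log2 difference of 3.15 (SE 1.14, adjusted p = 0.046), passed in 5 of 19 alternatives and is uncertain as a measure. The replicate 1 pools also held more RNA of other cells: the marker lists of other gonadal cells summed to 1628 CPM at PND12 and 606 CPM at PND14, against 211 and 155 CPM in replicate 2. The PND14 pools also differed in sorting. Replicate 1 held 212 cells of the 2N gate and 186 of the 4N gate, and replicate 2 held 94 cells of the 2N gate and 274 ungated cells. The part of other cells' RNA and of these gates in the split was not tested.

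Tex11 was the exception. It stood at 151, 95.8, 191 and 95.1 CPM, its pools overlapped those of PND5 to PND7, and its log2 difference was 0.07 (SE 0.38, adjusted p = 1.0, edgeR), with a sign that turned under 10 of 19 alternatives. The 7 of 8 members called stand beside 19.6% of all genes called and 15.8% called higher (4391 higher and 1064 lower, or 3030 and 2166 with DESeq2's size factors), with a median log2 difference of 2.36 over the members and 0.31 over all genes. The call of Dmc1 held in 11 of 19 alternatives, and those of Meiob, Msh4, Msh5 and Hfm1 in all 19. Without the PND12 replicate 2 pool 4 members were called, beside 1762 of 27739 genes. Without the PND14 replicate 2 pool 4 were also called, beside 2991 of 27757 genes.

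**Figure D2:**
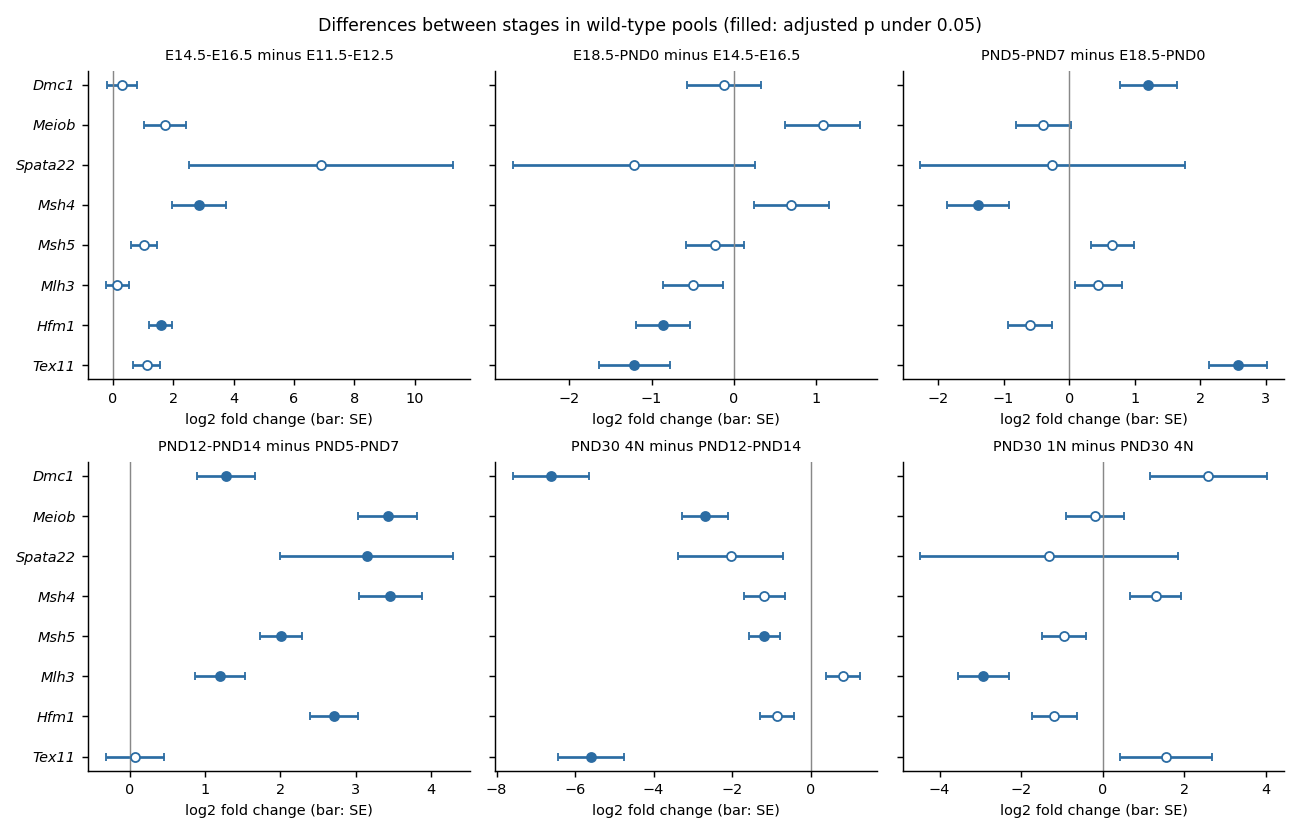
Log2 fold change with its SE (horizontal axis) for each member (vertical axis) in the comparisons between stages of wild-type pools, filled where the adjusted p was under 0.05. All members but Tex11 are filled at PND12-14 against PND5-7, where Tex11 sits at 0.07, and Dmc1 and Tex11 reach -6.61 and -5.60 in PND30 4N cells.

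Cells of the PND30 4N gate (2 pools) were set against PND12 and PND14. Dmc1, Tex11, Meiob and Msh5 fell. Dmc1 stood at 0.615 and 0.829 CPM against 62.02 to 117.3 CPM, a log2 difference of -6.61 (SE 0.97, adjusted p = 1.7e-06, edgeR). Tex11 stood at 2.19 and 1.35 CPM against 95.1 to 191 CPM (-5.60, SE 0.84, adjusted p = 2.3e-06). Both lay below their medians in the pools of other gonadal cells.

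Meiob stood at 13.3 and 19.3 CPM against 98.9 to 211 CPM (-2.69, SE 0.59, adjusted p = 0.00031, edgeR), and Msh5 at 14.9 and 16.99 CPM against 44.9 to 54.8 CPM (-1.18, SE 0.40, adjusted p = 0.015, called in 10 of 14 alternatives). Mlh3 was the member with a value in the other direction, at 69.4 and 61.9 CPM against 18.3 to 69.7 CPM, but its log2 difference of 0.82 (SE 0.43, adjusted p = 0.11) did not pass. Hfm1 stood at 32.4 and 32.6 CPM, below all 4 earlier pools, with a log2 difference of -0.86 (SE 0.42, adjusted p = 0.090). Called were 4 of 8 members, all lower, beside 51.8% of all genes called and 22.9% called lower. The median log2 difference was -1.61 over the members and 0 over all genes.

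Shares of cells with a UMI gave the same contrast between the genes. With each cell thinned to 50000 UMIs, 82.6% of 718 PND14 cells held a Dmc1 UMI (exact binomial 95% interval 79.6 to 85.3%) and 2.17% of 276 PND30 4N cells did (0.802 to 4.67%). Among 607 other gonadal cells after birth 22.6% held one (19.3 to 26.1%). The PND30 4N share lies below this value and is not read as expression. No PND30 pool of other gonadal cells reached 10 cells, so the comparison is mainly with other ages and libraries, whose pools also held germ cell markers. Mlh3 was in 53.9% of the PND14 cells (50.2 to 57.6%), in 86.6% of the PND30 4N cells (81.998 to 90.4%) and in 28.7% of the other cells. Before thinning, the median depths of these cells were 266136, 376220 and 143812 UMIs. They were the 718 of 766 PND14 cells, 276 of 286 PND30 4N cells and 607 of 728 other cells that were deep enough. Over all cells, unthinned, the Dmc1 shares were 93.3, 6.99 and 41.1%, and those of Mlh3 71.3, 97.6 and 37.2%.

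Within PND30, the 1N gate differed from the 4N gate in 1 member. Mlh3 stood at 8.53 and 6.54 CPM in 1N pools against 69.4 and 61.9 CPM in 4N pools, a log2 difference of -2.94 (SE 0.63, adjusted p = 0.0018, edgeR), and it was called in all 13 alternatives. Msh4 stood higher in both 1N pools, at 17.98 and 39.8 against 15.7 and 8.04 CPM, without passing (1.297, SE 0.62, adjusted p = 0.17). Hfm1 at 12.4 and 13.7 against 32.4 and 32.6 CPM also did not pass (-1.19, SE 0.55, adjusted p = 0.15). This 1 of 8 stands beside 15.3% of all genes, of which 2206 were higher and 2057 lower (3435 and 1501 with DESeq2's size factors).

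The gates share their 2 replicate numbers, and a fit of the PND30 pools alone with the replicate block called 4 members, beside 8413 of the 20166 genes it tested. Mlh3 had a log2 difference of -2.89 there (adjusted p = 0.0017, edgeR) and Hfm1 one of -1.17 (adjusted p = 0.041). Dmc1, at 2.54 and 6.31 CPM in 1N against 0.615 and 0.829 CPM in 4N pools, was called higher with the block (2.55, adjusted p = 0.0046) and not without it (2.59, adjusted p = 0.26). Tex11, at 4.54 and 6.19 against 2.19 and 1.35 CPM, was likewise called with the block (1.53, adjusted p = 0.024) and not without it (1.55, adjusted p = 0.44). The 1N and 4N pools of Dmc1 all lay below its median of 9.27 CPM in other gonadal cells. Those of Tex11 lay within its range there, where its median was 3.72 CPM. These differences are therefore not read as expression. Msh4 had an adjusted p of 0.056 with the block.

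No member was called between the 2N gate and the 4N gate by edgeR, with 0% of the 27778 genes called and 3083 genes at an unadjusted p under 0.05. DESeq2 called 1002 genes, Dmc1 among them at a log2 difference of 2.10. In simulated counts edgeR recovered 53.5% of 4-fold changes for this comparison, so members not called may still differ. With the replicate block in the PND30 pools alone edgeR called 925 genes, and without clusters with markers of other cells 2624, with no member among them in either fit. The replicates of the 2N gate were unlike: Mlh3 stood at 14.8 CPM in replicate 1 and 59.6 CPM in replicate 2. By the clusters described next, 51.8% of 2N cells were round spermatid-like and 39.4% late spermatocyte-like, so this gate held a mixture. The 4N gate was 70.3% late spermatocyte-like, 15.04% pachytene-like and 13.99% round spermatid-like, and the 1N gate 73.1% round spermatid-like and 24.8% late spermatocyte-like.

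**Figure D3:**
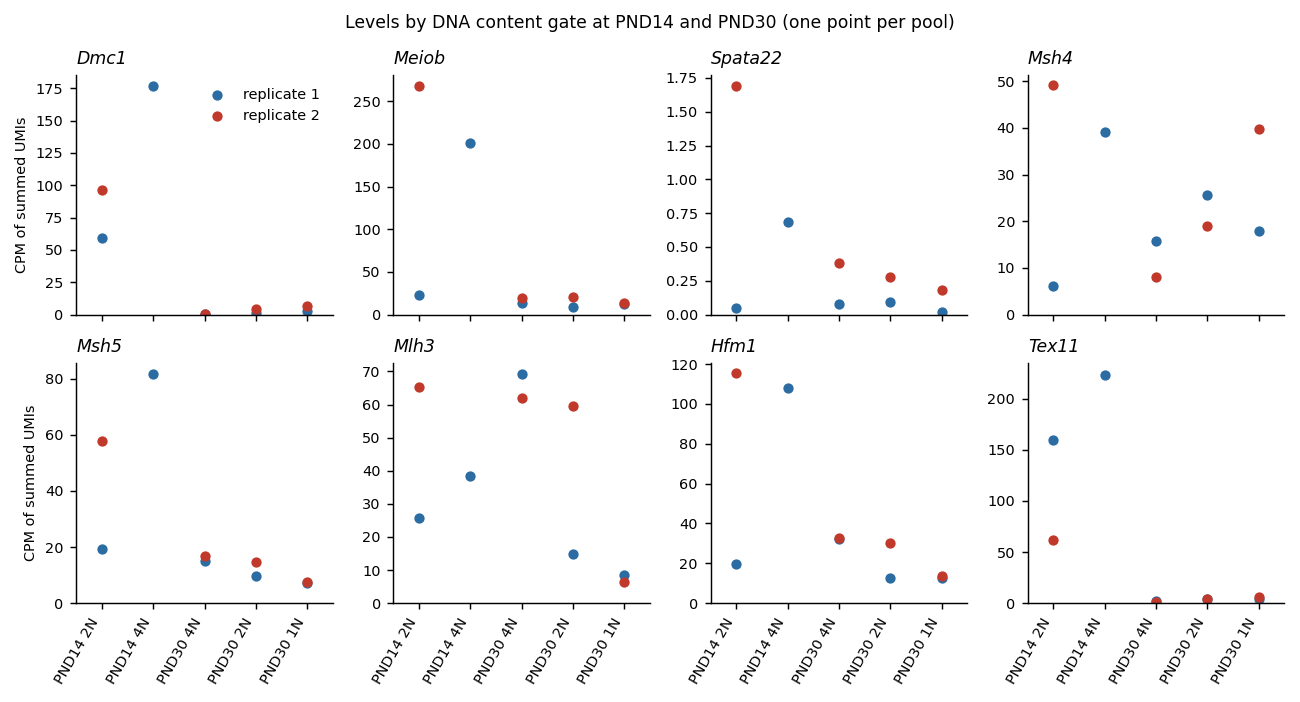
CPM of summed UMIs (vertical axis) in pools of PND14 and PND30 cells by DNA content gate (horizontal axis), 1 point per pool and 1 panel per gene. Mlh3 stands at 69.4 and 61.9 CPM in the PND30 4N pools and at 8.53 and 6.54 CPM in the 1N pools. No gated PND30 pool holds more than 6.31 CPM of Dmc1.

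At PND14 the gates separated the members within replicate 1, where both were pooled. Dmc1 stood at 177 CPM in 4N and 58.9 CPM in 2N cells, Meiob at 201 and 22.6 CPM, and Hfm1 at 107.8 and 19.6 CPM. Msh5 stood at 81.8 and 19.4 CPM and Msh4 at 39.2 and 6.05 CPM, so all of these were higher in 4N cells. Tex11 was nearer in level, at 224 and 160 CPM, and Mlh3 at 38.5 and 25.9 CPM. These are values of 1 replicate with no test. The 2N pool held 1059 CPM of other cells' markers and the 4N pool 143.2 CPM. In replicate 2 the 2N pool stood at 268 CPM of Meiob and 115.3 CPM of Hfm1, unlike the 2N pool of replicate 1.

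Germ-like cells of PND8 to adult were clustered and the clusters named from fixed markers that hold none of the members. Since the members are among the genes of these cells, the cluster levels are a description with no test. Dmc1 was highest in early prophase-like cells (2 pools) at 351 ± 152 CPM (SD), and stood at 74.2 ± 25.3 CPM in spermatogonia-like cells (663 cells, 6 pools). Tex11 stood at 229 ± 62.6 CPM in early prophase-like and 188 ± 38.9 CPM in spermatogonia-like cells, which overlap. In pachytene-like cells (453 cells, 7 pools) Dmc1 ranged from 0.106 to 99.7 CPM and Tex11 from 0.273 to 116.5 CPM, so the pools of this class were unlike. In late spermatocyte-like cells (977 cells, 5 pools) both were near 0, at 1.17 ± 0.53 and 1.35 ± 0.42 CPM.

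Mlh3 had the later profile. It stood at 22.8 ± 12.1 CPM in early prophase-like, 94.001 ± 15.6 CPM in pachytene-like, 69.04 ± 5.6 CPM in late spermatocyte-like and 8.03 ± 4.91 CPM in round spermatid-like cells (603 cells, 5 pools). Hfm1 stood at 197 ± 122.3 CPM in early prophase-like and 94.3 ± 28.6 CPM in pachytene-like cells, and Msh5 at 192 ± 118.2 and 36.6 ± 17.7 CPM. Meiob stood at 240 ± 86.96 and 107.3 ± 75.6 CPM in these classes. It was higher, at 385 ± 137.1 CPM, in an unnamed cluster of 257 cells led by A830018L16Rik, Cers2 and Ccdc152, where Msh4 stood at 84.3 ± 16.47 CPM.

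Msh4 was unlike its partner Msh5 at the end of meiosis. Msh4 stood at 4.30 ± 2.03 CPM in late spermatocyte-like and 33.7 ± 8.94 CPM in round spermatid-like cells, while Msh5 stood at 18.3 ± 2.31 and 9.90 ± 3.72 CPM. The 5 pools of round spermatid-like cells lay between 25.9 and 48.3 CPM of Msh4, all above the highest late spermatocyte-like pool at 7.24 CPM. In pachytene-like cells Msh4 stood at 33.5 ± 26.9 CPM, with pools from 8.28 to 72.3 CPM. Its level in round spermatid-like cells was thus not separate from that in pachytene-like cells. When the cells were clustered at a resolution of 2.0 in place of 1.0, the class with the highest level was the same for all but Msh4, which moved from round spermatid-like to early prophase-like, and Tex11, which moved from early prophase-like to spermatogonia-like. Levels within the early prophase-like class moved with it, as the class then held 339 cells. The means became 190 CPM for Dmc1, 102.3 for Msh5, 121.3 for Tex11, 377 for Meiob and 48.7 for Mlh3, and that of Msh4 went from 25.3 to 72.7 CPM. In round spermatid-like cells the mean of Mlh3 became 22.7 CPM and that of Hfm1 went from 18.7 to 29.8 CPM. In pachytene-like cells Dmc1 went from 25.1 to 10.8 CPM and Tex11 from 21.5 to 3.75 CPM.

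Of the 186 PND14 4N cells 47.3% were early prophase-like and 26.3% were in unnamed clusters. Of the 306 PND14 2N cells 88.6% were in unnamed clusters, so their 1.63% of early prophase-like cells is not compared with the 4N gate.

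**Figure D4:**
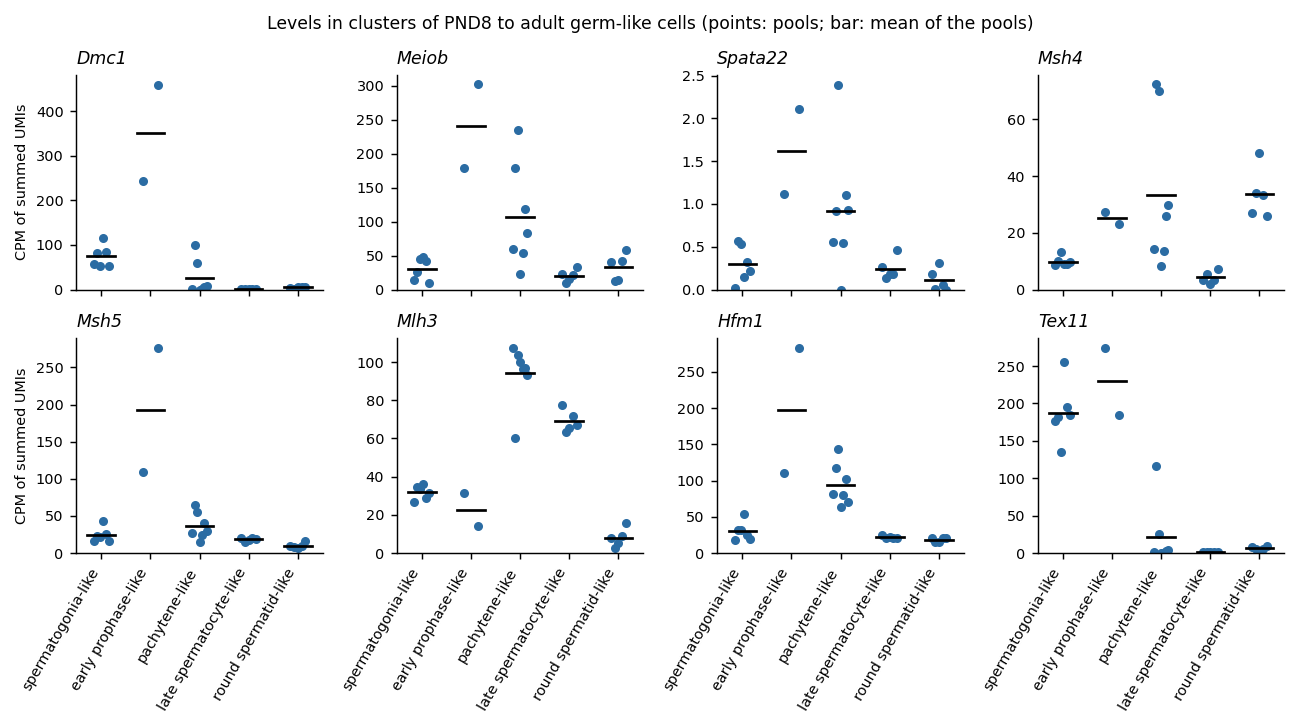
CPM of summed UMIs (vertical axis) in pools of 5 named classes of germ-like cells from PND8 to adult (horizontal axis), with a bar at the mean of the pools. Dmc1 falls from 351 CPM in early prophase-like to 1.17 CPM in late spermatocyte-like cells. Msh4 stands at 33.5 CPM in pachytene-like and 33.7 CPM in round spermatid-like cells.

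In the fetal gonad, reporter-positive pools were set against reporter-negative pools of the same day and replicate (16 pairs). The negative pool of E15.5 replicate 2 held 62.3 CPM of germ cell markers and 6463 CPM of other markers, and other negative pools may differ. Negative pools ranged up to 24.2 CPM of Tex11 and 35.7 CPM of Hfm1. Tex11 was higher in 16 of 16 pairs, with a median of 34.2 against 1.09 CPM and a log2 difference of 3.63 (SE 0.35, adjusted p = 4.7e-11, edgeR). Hfm1 was higher in 16 of 16 pairs, at 31.3 against 2.57 CPM in the median (2.43, SE 0.29, adjusted p = 8.1e-09). Msh4 was higher in 15 of 16 pairs (1.79, SE 0.45, adjusted p = 0.00095) and Mlh3 in 16 of 16 (0.55, SE 0.21, adjusted p = 0.027). These 4 of 8 members compare with 51.4% of the 23325 genes tested. Dmc1 at 0.54 (adjusted p = 0.13) and Meiob at 0.47 (adjusted p = 0.37) did not pass. Msh5 was lower in the positive pool in 11 of 16 pairs, with a median of 7.78 against 11.8 CPM, and did not pass either (-0.54, SE 0.31, adjusted p = 0.15). Without the E15.5 replicate 1 pair, which holds the 3 cells described above, Dmc1 was called at 0.91 (adjusted p = 0.0021) and Meiob at 1.24 (adjusted p = 0.0043).

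Distal and proximal gonad segments of E13.5 to E16.5 were compared in 8 pairs, and none of the 7 members tested passed, beside 0.0307% of the 19539 genes tested. Dmc1 was higher in 4 and lower in 4 of the pairs. Meiob was lower in the distal segment in 7 of 8 pairs, with a range of 1.68 to 14.2 CPM against 6.43 to 45.3 CPM, and a log2 difference of -1.54 (SE 0.34, adjusted p = 0.11, edgeR). The highest proximal value, 45.3 CPM, is that of the 3 cells' pool, and without reporter-negative cells the log2 difference was -0.85 with an adjusted p of 0.78.

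The Helq null comparison asked whether loss of HELQ, a DNA helicase of replication repair, went with a change in the members. Helq itself was the first check: its 3′ tag, which lies outside the deleted bases, stood at 16.99 to 40.4 CPM in the 9 null pools and 15.8 to 28.1 CPM in the 12 wild-type pools, and so does not check the genotype. Meiob was the 1 member that differed. It had no UMI in the E11.5 null pool, which allows up to 0.168 CPM, against 3.54 and 0.808 CPM in wild-type pools. At E12.5 it stood at 0.803 CPM against 3.86 and 3.09 CPM, and at E13.5 at 1.14 and 1.96 CPM against 8.44 and 5.59 CPM.

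At E14.5 Meiob stood at 0.0517 and 3.12 CPM in null pools against 7.36 and 5.64 CPM, at E15.5 at 1.62 and 1.41 CPM against 22.3 and 9.43 CPM, and at E18.5 at 6.10 CPM against 21.7 and 35.2 CPM. Null pools were below wild-type pools on 6 of 6 days, without overlap on any day, but E11.5, E12.5 and E18.5 had 1 null pool each. The paper reports a developmental arrest of null germ cells at E15.5 and E18.5. The pools were not matched for stage, and the part of stage in the difference was not tested. In the fit with day as a term the log2 difference was -2.72 (SE 0.34, adjusted p = 5.6e-06, edgeR), and over 30 alternatives it stayed between -2.94 and -2.39 and was called in each, the fit without reporter-negative cells included. Meiob ranked 19 by p among the 21566 genes tested, of which 2.82% were called and 1.73% called lower. Its wild-type levels on these days lay within its range in other gonadal cells, 0.180 to 63.5 CPM.

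The other members tested showed no difference past the threshold. The log2 differences were 0.21 (SE 0.24) for Msh4, 0.18 (SE 0.25) for Msh5, 0.12 (SE 0.16) for Tex11, -0.08 (SE 0.17) for Mlh3, -0.11 (SE 0.15) for Hfm1 and -0.17 (SE 0.20) for Dmc1, with adjusted p of 0.72 to 0.86 (edgeR). Tex11 was lower on 2 days and overlapped on the other 4, and Dmc1 was lower on 2 days, higher on 2 and overlapped on 2. Spata22, the partner of Meiob, was not tested because of its low counts and lay between 0 and 0.449 CPM in the null pools. Of the 140 other genes tested within 2 Mb of Meiob 5.71% were called, 3 of them lower, and 4.39% of the 957 tested on chromosome 17. All null cells come from 1 targeted line.

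**Figure D5:**
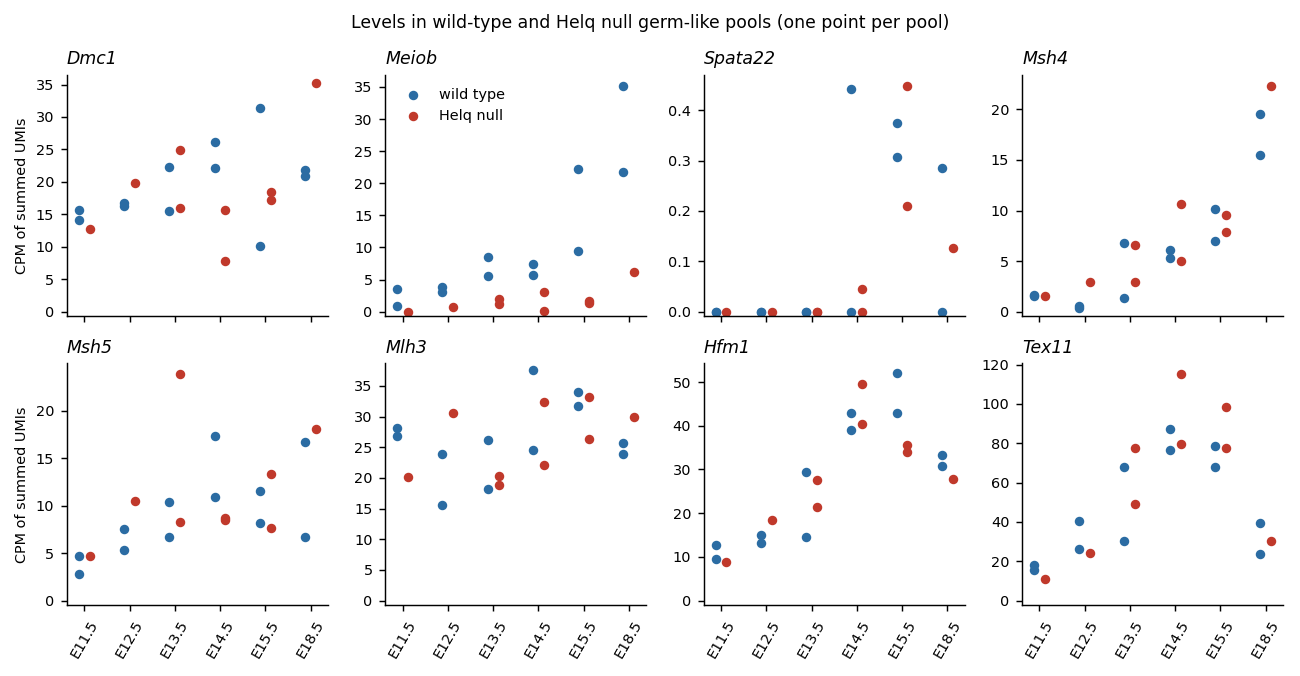
CPM of summed UMIs (vertical axis) in wild-type and Helq null germ-like pools by embryonic day (horizontal axis), 1 point per pool. Null pools of Meiob lie below the wild-type pools on all 6 days, at 0 to 6.10 CPM, and those of every other gene overlap the wild-type pools on at least 2 of the 6 days.

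Other genes of the pathway, 47 in 4 lists, were read in the same fits. At PND12-14 against PND5-7, 21 of 47 rose and 0 fell, beside 15.8% of all genes tested that were called higher. By role, 6 of 9 break formation genes rose, 9 of 17 genes of crossover designation and resolution, 6 of 16 strand exchange genes and 0 of 5 mismatch repair relatives. The largest rises were those of Cntd1, a cyclin-like crossover regulator, at 4.31 (SE 0.80), and Spo11, which makes the breaks, at 4.17 (SE 0.45). Prdm9, which places breaks at hotspots, rose by 3.68 (SE 0.52), and Spo16 (1700028K03Rik), a partner of SHOC1, by 3.24 (SE 0.35), all log2 differences in edgeR. With DESeq2's size factors 15 of the 47 rose and 1 fell.

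The same lists were counted in the other comparisons, each beside the share of all genes called in either direction. From mitotic to arrested cells, where 25.4% of all genes were called, 13 of the 47 rose and 14 fell: 6 of 9 break formation genes rose and none fell, while 1 of 16 strand exchange genes rose and 7 fell, and 3 of 5 mismatch repair relatives fell. From prospermatogonia to spermatogonia (48.8% of all genes) 28 rose and 4 fell, 13 of the 16 strand exchange genes among those that rose. With DESeq2's size factors these counts were 18 and 5, with 8 strand exchange genes. In PND30 4N cells 11 rose and 26 fell against PND12-14 (51.8% of all genes), and in 1N against 4N cells 1 was higher and 19 lower (15.3%). With DESeq2's size factors the counts were 16 and 25, and 3 and 12. From arrested cells to prospermatogonia (33.5%) 3 rose and 18 fell, or 3 and 11 with DESeq2's size factors, and in 2N against 4N cells and in distal against proximal segments none passed. In reporter-positive against negative pools 25 were higher and 4 lower (51.4%), and in Helq null pools 1 of 46 was lower (2.82%), Rnf212b at -1.01.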

How the data were processed

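Single cells were sequenced by STRT-seq, and the authors deposited a table of UMI counts per gene and cell, which they made with UMI-tools, seqtk, STAR and featureCounts on mm10 (CASAVA 1.8 is also named in the submitters' processing notes). GEO's labels name libraries only, so time-point, genotype, replicate, gate and ploidy were read from the deposited table of cells. The counts were used as deposited. Of 13032 cells, 2368 columns of E6.5 to E10.5 cells were not used. Cells with more than 2000 genes and 10000 to 1000000 UMIs were kept, 9287 wild-type and 1094 Helq null, and no barcode was repeated within a library. No doublet caller was run.

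Cells were clustered with scanpy 1.11.5 (1000 variable genes, 30 components, 20 neighbours, resolution 1.0). Clusters were called germ-like from 69 fixed markers, which hold no member. Of 32 clusters 21 were germ-like, and 3 led by blood genes were left unnamed by a rule set after the clusters were seen. Cells of PND8 to adult were clustered again into 22 clusters, of which 7 (1257 of 4068 cells) stayed unnamed. UMIs were summed per pool of at least 10 cells, and depth was 11603962 to 187711061 UMIs per pool, with a median of 45459382.

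Pools were tested with edgeR 4.0.16 in R 4.3.3 (TMM, filterByExpr, quasi-likelihood F test, Benjamini-Hochberg adjustment over all genes tested, threshold 0.05). Separate fits held all wild-type time-points, the reporter gates with each day and replicate as a block, the gonad segments with the same block, and the genotypes with day as a term. The main fit across time-points had no replicate block, and the sources do not state that equal replicate numbers share animals. Adjusted p in the text come from edgeR unless DESeq2 1.42.0 is named. Shares of cells with a UMI were computed after thinning each cell to 50000 UMIs (seed 1), and their intervals and the limit of 3 counts for a count of 0 cover counting error only. The scripts were tested on simulated data. The alternatives were DESeq2's size factors and test, no filter on low counts, a minimum of 30 cells per pool, all cells, a germ cell rule per cell, leaving out each pool, and 2 chosen after seeing the data, namely leaving out germ-like clusters with markers of other cells and leaving out cells sorted as Negative.

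The members and the pathway lists were chosen with earlier results of these data known. All members are named. Of the other pathway genes, up to 4 with the largest rise and 4 with the largest fall among those called at PND12-14 against PND5-7 are named, with Helq as the targeted gene. Rnf212b was named after its value was seen. For each member the 2 genes of the most similar profile are named, among genes with a mean of at least 5 CPM.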

Additional observations from a re-analysis of the deposited data

Results flagged for a closer look

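Pools that stood apart from the rest of their group were searched for in 63 sets of 8 groups of pools, where chance marks about 1 set in 20. In the Helq null pools, Spata22 stood at 0.449 CPM in the E15.5 replicate 1 pool, with the other 8 at 0 to 0.210 CPM, and Msh4 at 22.3 CPM in the E18.5 replicate 1 pool, with the others at 1.51 to 10.7 CPM. Wild-type Msh4 was also higher at E18.5 than on earlier days, at 15.52 and 19.6 CPM.

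In the proximal gonad segments, Meiob stood at 45.3 CPM in the E15.5 replicate 1 pool, with the other 7 at 6.43 to 16.6 CPM. That pool holds the 3 reporter-negative cells with 453 to 527 CPM of Meiob and 0 to 2 Y-linked UMIs each. Spata22 stood at 2.08 CPM in the proximal E16.5 replicate 1 pool, with the others at 0 to 0.818 CPM, and at 0.340 CPM in the distal E15.5 replicate 2 pool, with the others at 0 to 0.105 CPM. The values of Spata22 rest on few UMIs and on the bases it does not share with Gm49340.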

How the results depend on the processing

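The members called per comparison depended on the scaling and test in several comparisons, and the cause was not tested. In arrest against mitotic cells 2 members passed, beside 7047 of 27778 genes tested. With DESeq2's size factors 5 passed (7503 of 27778 genes), with DESeq2 6 (11533 of 24008) and with all deposited cells 4 (7211 of 27791). With the rule per cell 5 passed (7434 of 27813 genes), and without clusters with markers of other cells 5 (9272 of 26525). When a pool was left out 1 to 3 passed, beside 5715 to 7109 genes. In prospermatogonia against arrest 2 passed (9311 of 27778 genes), 1 with DESeq2's size factors (9691 of 27778) and 1 with at least 30 cells per pool (9204 of 27777). When a pool was left out 0 to 2 passed, beside 7682 to 9005 genes. At PND12-14 against PND5-7, 7 passed (5455 of 27778 genes), and 4 with PND14 alone against PND7 alone (1690 of 27778). When a pool was left out 4 to 7 passed, beside 1762 to 6144 genes. In PND30 4N cells 4 passed (14394 of 27778 genes), and 7 without clusters with markers of other cells (14307 of 26525). In 1N against 4N cells 1 passed (4263 of 27778 genes), 2 with DESeq2's size factors (4936 of 27778) and 4 with DESeq2 (5869 of 20238). Without clusters with markers of other cells 4 passed (7454 of 26525 genes), and 4 in the PND30 pools alone with the replicate block (8413 of 20166). In 2N against 4N cells DESeq2 called 1 (1002 of 16468 genes). In distal against proximal segments 1 passed with no filter on low counts (Meiob, -1.52, adjusted p = 0.024, edgeR), beside 11 of 26439 genes. Meiob alone of the members was called in Helq null pools under all 30 alternatives, in which 439 to 1033 of all genes were called. The point at which the share of cells with a UMI was highest at 50000 UMIs was also the highest at 20000 UMIs for 4 of the 8 members, and in unthinned cells for 3.

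Over 78 values of members in the comparisons and 1386 alternatives, 1349 kept their direction. Log2 differences that turned sign, none past the threshold, were those of Dmc1 in prospermatogonia (0.076 with DESeq2's size factors, 0.092 with DESeq2, 0.062 without cells sorted as Negative), Tex11 at PND12-14 (-0.16 with DESeq2's size factors, -0.16 with DESeq2, -0.10 with no filter, -0.17 with all cells, -0.14 with the rule per cell, -0.15 without clusters with markers of other cells), Meiob in 1N cells (0.19 and 0.20 with DESeq2's size factors and DESeq2), Spata22 in 2N cells (0.056 with DESeq2's size factors), Msh5 by gate (0.0082 with at least 30 cells) and Msh4 in distal segments (0.075 with DESeq2, 0.17 without cells sorted as Negative). When a pool was left out, the range crossed 0 in arrest for Mlh3 (-0.069 to 0.29) and Dmc1 (-0.014 to 0.44), in prospermatogonia for Spata22 (-3.93 to 0.83) and Dmc1 (-0.38 to 0.20), in spermatogonia for Spata22 (-1.19 to 2.41), at PND12-14 for Tex11 (-0.30 to 0.081), in 1N cells for Spata22 (-2.75 to 0.17) and Meiob (-0.38 to 0.054), in 2N cells for Spata22 (-1.25 to 0.94) and Meiob (-0.81 to 0.18), in distal segments for Msh4 (-0.32 to 0.18), Hfm1 (-0.18 to 0.075) and Dmc1 (-0.55 to 0.057), and in Helq null pools for Mlh3 (-0.18 to 0.0025) and Msh5 (-0.018 to 0.36).

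DESeq2's size factors moved the median log2 difference of all genes from 0.61 to 0.79 in prospermatogonia, -0.65 to -1.02 in spermatogonia, 0.31 to 0.04 at PND12-14, 0 to 0.32 in 4N cells, 0 to 0.29 in 1N cells, 0.02 to 0.16 in 2N cells and 0.30 to 0.47 by gate. The fits of prospermatogonia and spermatogonia without clusters with markers of other cells could not be made, since no E18.5 pool was left. Spata22, at 0 to 2.76 CPM, is the member that depth limits most.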
